A study of Mus musculus with 9 samples.

Results

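The 10 genes described here are *Tnf*, *Il1b*, *Il18*, *Il6*, *Il10*, *Il1rn*, *Nlrp3*, *Ptgs2*, *Csf1* and *Il15*, a set of cytokines of inflammation and immunity with 1 cytokine antagonist, 1 inflammasome sensor and 1 inducible enzyme of prostaglandin synthesis. They were chosen by symbol, and each symbol matched 1 protein-coding row among the 56748 genes of the count table. All 10 were among the 18510 genes that reached 0.5 CPM, read counts scaled to a common library size, in at least 1 library and were tested. RNA of epididymal adipose tissue, a visceral fat depot, was sequenced from male C57BL/6J mice of genotype WT that entered the study at 8 weeks of age and received a high-fat diet (HFD) for 8 weeks. Libraries were made at the end of the HFD (Pre, n = 3) and after 1 week (WL1, n = 3) or 2 weeks (WL2, n = 3) of standard diet (SD) that followed it. Each phase thus shares the 8 weeks of HFD, and mice kept on HFD for the same added weeks were not analysed here, so that weight loss and the added time cannot be told apart. The labels do not say whether each library is a separate mouse, and the p-values measure the spread between these libraries. The tissue was sequenced whole, so that fewer cells of a type and less RNA per cell cannot be told apart.

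TNF, IL-1β, IL-18 and IL-6 are secreted cytokines that drive inflammation, and in obese fat they are made in large part by macrophages. IL-1β and IL-18 are made as inactive precursors, which caspase-1 cleaves after sensors such as NLRP3 have assembled an inflammasome, so that the mRNA does not give the amount of active cytokine. The IL-1 receptor antagonist, the product of *Il1rn*, occupies the IL-1 receptor without signalling, and IL-10 dampens the response of macrophages. Many of these genes are transcribed under the control of NF-kB.

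The sequence before the start site is shown for 4 members. They are *Tnf* and *Il1rn*, whose mRNA differed most clearly between phases, and *Il1b* and *Il6*, which are known for their induction together with *Tnf* and had few reads here. Each is the 250 bases before a RefSeq start on build GRCm38.p6, written 5′ to 3′ on the strand of the gene. Capitals mark matches to the TATAAA motif or the NF-kB consensus on either strand. They lie at chr17:35202008-35202257 (minus strand, *Tnf*), chr2:24336610-24336859 (plus strand, the most upstream of 3 *Il1rn* starts), chr2:129371140-129371389 (minus strand, *Il1b*) and chr5:30012864-30013113 (plus strand, *Il6*).
Tnf: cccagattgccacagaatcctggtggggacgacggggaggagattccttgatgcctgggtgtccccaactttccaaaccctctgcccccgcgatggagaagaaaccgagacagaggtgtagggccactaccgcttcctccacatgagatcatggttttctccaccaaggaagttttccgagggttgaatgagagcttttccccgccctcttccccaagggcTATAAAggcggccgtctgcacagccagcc
Il1rn: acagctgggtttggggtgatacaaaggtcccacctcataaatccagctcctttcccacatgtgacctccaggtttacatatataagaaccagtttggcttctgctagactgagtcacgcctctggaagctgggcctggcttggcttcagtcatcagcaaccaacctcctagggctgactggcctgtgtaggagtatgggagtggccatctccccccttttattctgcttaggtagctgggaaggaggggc
Il1b: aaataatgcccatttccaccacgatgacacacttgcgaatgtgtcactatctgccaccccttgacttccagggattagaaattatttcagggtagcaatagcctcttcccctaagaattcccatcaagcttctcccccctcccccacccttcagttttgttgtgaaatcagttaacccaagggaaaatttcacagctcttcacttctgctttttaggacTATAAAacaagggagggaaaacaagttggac
Il6: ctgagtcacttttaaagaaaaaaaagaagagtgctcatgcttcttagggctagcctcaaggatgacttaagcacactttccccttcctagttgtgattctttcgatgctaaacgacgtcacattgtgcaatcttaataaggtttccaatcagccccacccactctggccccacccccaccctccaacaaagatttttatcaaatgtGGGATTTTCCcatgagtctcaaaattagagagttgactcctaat
TATAAA began at position -29 from the start in *Tnf* and at -31 in *Il1b*, and the NF-kB consensus began at -44 in *Il6*. The *Il1rn* window held neither. Reads were counted per gene and do not show which of the *Il1rn* starts was used.

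RefSeq promoters were matched for 8 of the 10 members, with 11 starts in all. The NF-kB consensus was found in 3 of the 11 windows (*Il6*, 1 of *Nlrp3* at -186, and *Csf1* at -154), against 3.9% of 32851 promoter windows of the same length. TATAAA was found in 3 of the 11 (*Tnf*, *Il1b*, and *Il18* at -175), against 12.4% of all windows. TTNNGNAA, a C/EBP motif, was found in 8 of the 11 against 36.8%. The downstream *Il1rn* windows (chr2:24345041-24345290 and chr2:24345121-24345370) overlap and each held this motif. Each *Nlrp3* window held it too, so that the 11 windows are not independent of each other. TGANTCA, an AP-1 motif, was found in 2 of the 11 (*Il6* and the *Il1rn* window above) against 6.75%, and TGACGTCA, a cAMP response element, in 0 of the 11 against 1.55%. All motifs were read on both strands, and matches of different motifs may overlap. These matches are letters in a window and not measured binding.

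The libraries held 16434450 to 22729072 counted reads. Adipocyte markers were detected as 8 of 8 genes in each phase, with a summed level of 29602 to 45751 CPM at Pre, 26954 to 31353 at WL1 and 29538 to 32198 at WL2. Of these, 8 of 8 had lower values at WL1 than at Pre (median log2 fold change -0.46, 3 called by edgeR), or 7 of 8 with library totals as the scaling. Between Pre and WL2, 5 of 8 had lower values, with 2 called. Of all genes tested, edgeR called 7.29% at WL1 and 10% at WL2, each against Pre. Macrophage markers (10 of 10 detected) summed to 1523 to 2782 CPM at Pre, 2803 to 5433 at WL1 and 1687 to 3141 at WL2, where WL2 replicate 1 had the highest value. B cell markers summed to 1124 to 2703 CPM at Pre, 169 to 290 at WL1 and 156 to 245 at WL2. All 6 of these genes had lower values at WL1 and at WL2 than at Pre, but edgeR called only 1 in each comparison. Libraries did not overlap for only 1 of the 6 in each, where the shares over all genes were 28.7% and 30.9%. T and NK cell markers summed to 30.5 CPM in Pre replicate 2 and to 4.29 to 8.45 in the other libraries of the 3 phases. Neutrophil markers summed to 13.7 to 19.1 CPM at Pre, 4.13 to 5.05 at WL1 and 1.98 to 5.91 at WL2, with *Ly6g* at 0 in each phase and *Ngp* at 0 at WL1 and WL2. Fibroblast markers summed to 2192.5 to 2742 CPM at Pre, 1600 to 2151 at WL1 and 1800 to 2320 at WL2. Of the 6 fibroblast genes, 3 were higher and 3 lower at WL1 than at Pre. Endothelial markers summed to 1256 to 1840 CPM at Pre, 1029 to 1940 at WL1 and 1427 to 1621 at WL2. Mesothelial markers summed to 37.3 to 366 CPM at Pre, 44.3 to 219 at WL1 and 233 to 658 at WL2. From WL1 to WL2, 6 of 6 mesothelial markers had higher values (median log2 fold change 1.84), with 0 called by edgeR, where 3.68% of all genes were called. An unadjusted p under 0.05 was found for 6 of the 6, against 21.4% of all genes. Their libraries did not overlap for 3 of the 6, against 30.3%. Markers of epididymis and testis summed to 5.18 to 11.1 CPM, with *Defb2* and *Svs4* at 0 throughout, *Crisp1* at 0 at Pre and WL1, *Lcn5* at 0 at Pre and WL2 and *Lcn8* at 0 at WL1.

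The levels of the 10 genes spanned a wide range. FPKM scales fragments by gene length and library size, so that genes can be set side by side. On this scale, *Csf1* had the highest mean at Pre (14.0) and WL2 (16.0), and *Il6* the lowest at Pre (0.125), WL1 (0.0728) and WL2 (0.159). *Il1rn* moved from the second place at Pre (3.96) to the first at WL1 (15.8), next to *Csf1* (14.0), with overlapping libraries, and back to the second at WL2 (5.47). *Il18* (3.47, 3.29 and 5.22 at Pre, WL1 and WL2) and *Il15* (2.78, 3.91 and 3.11) came next, and their libraries overlapped at Pre and WL1. *Tnf* followed these genes in each phase (0.905, 1.91 and 0.776). *Il10*, *Nlrp3*, *Il1b*, *Ptgs2* and *Il6* had at most 0.665 FPKM on average in any phase, and most neighbours in this lower part of the order overlapped.

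**Figure D1:**
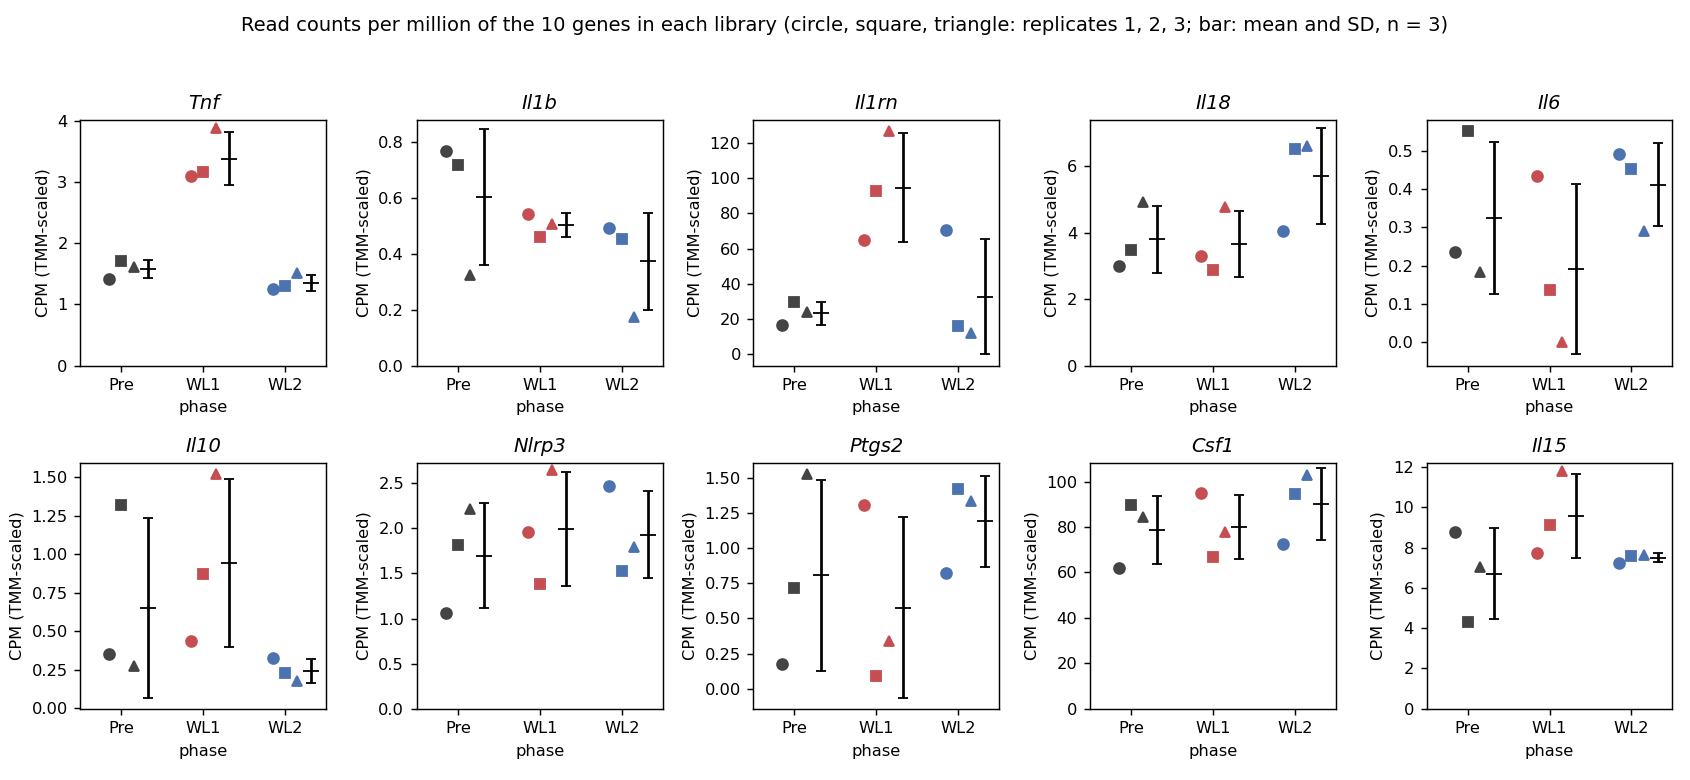
TMM-scaled CPM (vertical axis of each panel) of the 10 genes by phase (horizontal axis), with 1 point per library and a bar for the mean and SD (n = 3). The 3 WL1 libraries of Tnf lie above the 6 others, and Il1rn at WL2 has 1 library at 70.6 CPM and the others at 15.7 and 11.7.

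*Tnf* codes for tumour necrosis factor, a cytokine of activated macrophages (ENSMUSG00000024401, chromosome 17, 35418357 to 35420983 on the minus strand in the coordinates of the authors' table). It had 24, 31 and 35 reads at Pre, 57, 69 and 69 at WL1 and 23, 23 and 26 at WL2, which correspond to 1.58 ± 0.150, 3.38 ± 0.433 and 1.36 ± 0.131 CPM (SD, n = 3). Each WL1 library was above each Pre and WL2 library, while Pre and WL2 overlapped. *Tnf* rose at WL1 against Pre by a log2 fold change of 1.09, a 2.13-fold difference (SE 0.25, 95% interval 0.53 to 1.65, edgeR adjusted p = 0.0297). It fell from WL1 to WL2 by 1.31 on the log2 scale (SE 0.26, 95% interval -1.88 to -0.75, edgeR adjusted p = 0.0260). WL2 against Pre gave -0.22 (95% interval -0.80 to 0.36, edgeR adjusted p = 0.625). In the contrast of WL1 with the mean of Pre and WL2 it was higher by 1.20 (SE 0.21, edgeR adjusted p = 0.0213).

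The direction of *Tnf* was the same in every fit that left out 1 library, but the calls were close to the threshold. The rise at WL1 was lost without Pre replicate 1 (log2 fold change 1.02), Pre replicate 3 (1.11) or WL1 replicate 1, 2 or 3 (1.15, 1.14 and 0.97). It was also lost without a filter on low counts (1.10, edgeR adjusted p = 0.0621) and with Pre and WL1 fitted alone (1.07, edgeR adjusted p = 0.0609). The fall from WL1 to WL2 was lost without WL1 replicate 1, 2 or 3 (-1.37, -1.36 and -1.18) or WL2 replicate 2 or 3 (-1.29 and -1.39). The contrast with the mean of Pre and WL2 was lost without the same 5 libraries (1.26, 1.25, 1.08, 1.19 and 1.24). DESeq2 called the rise (adjusted p = 0.00846) and the fall (adjusted p = 0.00188).

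*Il1rn*, which codes for the IL-1 receptor antagonist (ENSMUSG00000026981, chromosome 2, 24226865 to 24241506, plus strand), had the largest difference of the 10 genes at WL1 against Pre. The reads numbered 279, 535 and 521 at Pre, 1190, 2020 and 2255 at WL1 and 1289, 278 and 202 at WL2, or 23.3 ± 6.54, 94.7 ± 31.1 and 32.7 ± 32.9 CPM (SD, n = 3). The WL1 libraries did not overlap with those of Pre. WL2 replicate 1 stood at 70.6 CPM, within the range of WL1, and the other WL2 libraries at 15.7 and 11.7 CPM, below the lowest Pre library (16.5). Between Pre and WL1 the log2 fold change was 2.02, a 4.06-fold difference (SE 0.58, 95% interval 0.73 to 3.31), which did not pass the adjusted threshold (edgeR adjusted p = 0.0639). WL2 against WL1 gave -1.53 (95% interval -2.80 to -0.27, edgeR adjusted p = 0.154), and WL2 against Pre gave 0.49 (95% interval -0.78 to 1.75, edgeR adjusted p = 0.624). The contrast of WL1 with the mean of Pre and WL2 was 1.78 (edgeR adjusted p = 0.0579).

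These values for *Il1rn* depended on WL2 replicate 1. Without it, WL1 against Pre gave the same fold change and passed (2.02, SE 0.27, edgeR adjusted p = 0.00317), and WL2 against WL1 was -2.79 (edgeR adjusted p = 0.00428). The contrast with the mean of Pre and WL2 was then 2.40 (edgeR adjusted p = 0.00267), and WL2 against Pre turned to -0.76. The difference at WL1 against Pre also passed without WL2 replicate 3 (2.02, edgeR adjusted p = 0.0443), with Pre and WL1 fitted alone (2.00, edgeR adjusted p = 0.00901) and without a filter on low counts (2.03, edgeR adjusted p = 0.00157). It passed with library totals as the scaling (2.11, edgeR adjusted p = 0.0465) and in DESeq2 (2.01, adjusted p = 0.0343). It did not pass in the other 7 fits that each left out 1 library, so that 2 of 9 called it, nor with RLE factors (edgeR adjusted p = 0.062) or the filter on 3 libraries (edgeR adjusted p = 0.0569). It also missed the threshold in limma on log2 FPKM with a pseudocount of 1 or 0.1 (limma adjusted p = 0.0716 and 0.0769). The log2 fold change of WL1 against Pre was 1.75 to 2.23 whichever library was left out. With all 9 libraries, WL2 against WL1 passed only without a filter (-1.54, edgeR adjusted p = 0.0163). The contrast with the mean of Pre and WL2 then passed with library totals (1.80, edgeR adjusted p = 0.0482) and without a filter (1.78, edgeR adjusted p = 0.000793). It also passed in DESeq2 (1.77, adjusted p = 0.0332), and in no other setting with all 9 libraries.

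Between the phases, the macrophage markers moved in the same directions as both genes. Of the 10 marker genes, 9 were higher at WL1 than at Pre and 9 lower at WL2 than at WL1, with 0 called by edgeR in both comparisons (5 at an unadjusted p under 0.05 in each). DESeq2 called 3 and 1 of them, against 2344 and 1935 of all 18510 genes. Of all genes tested, edgeR called 7.29% and 3.68%, and 24.3% and 21.4% had an unadjusted p under 0.05. The sum of the markers was 1523, 2782 and 2395 CPM at Pre, 2803, 3323 and 5433 at WL1 and 3141, 1687 and 1866 at WL2. Per 1000 CPM of these markers, *Tnf* stood at 0.614 to 0.930 CPM at Pre, 0.714 to 1.10 at WL1 and 0.401 to 0.807 at WL2, so that the phases overlapped on this scale. Single libraries did not always follow the markers. WL2 replicate 1 had a higher marker sum than WL1 replicate 1 (3141 against 2803 CPM). Its *Tnf* was the lowest of the 9 libraries, at 1.26 CPM against 3.09 CPM in WL1 replicate 1. *Il1rn* per 1000 CPM of markers was 10.04 to 10.81 CPM at Pre and 23.0 to 27.9 at WL1, without overlap, and 22.5, 9.34 and 6.27 in the WL2 libraries. The part that macrophage content had in these differences was not tested.

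**Figure D2:**
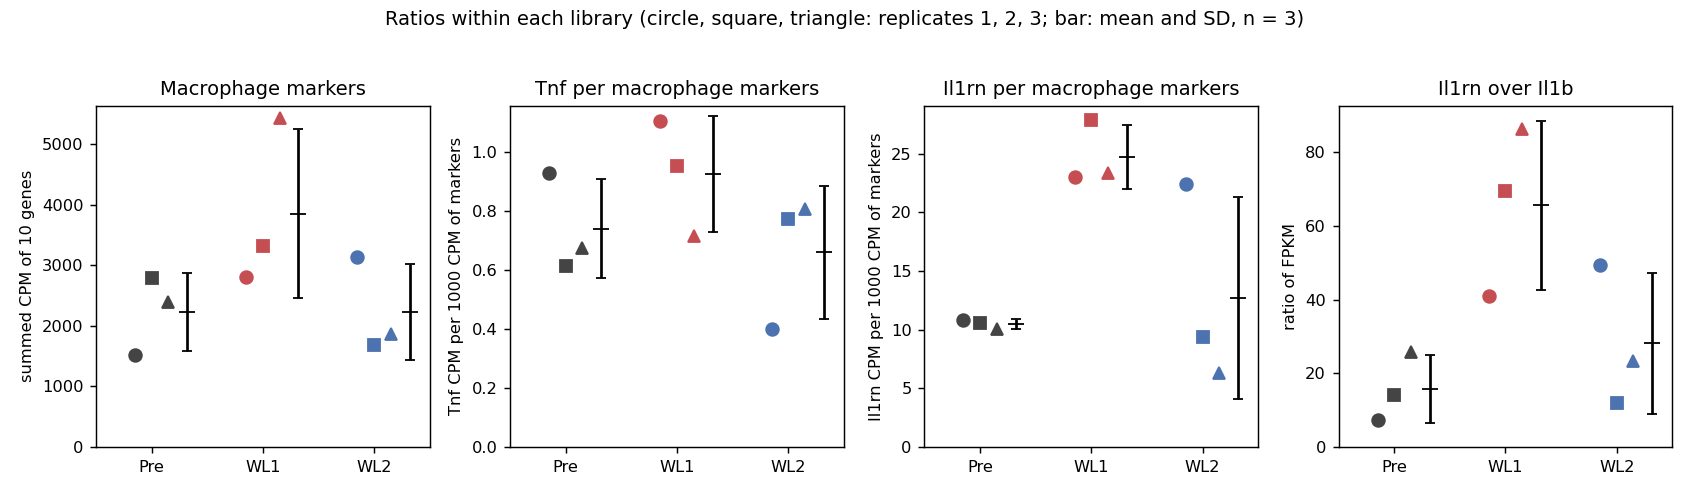
Summed CPM of 10 macrophage markers, Tnf and Il1rn in CPM per 1000 CPM of these markers, and the FPKM ratio of Il1rn to Il1b (vertical axes, from left to right) by phase, with 1 point per library and the mean and SD (n = 3). Il1rn per marker lies at 10.04 to 10.81 at Pre and 23.0 to 27.9 at WL1, while Tnf per marker overlaps between the phases.

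*Il1b*, the ligand that the antagonist blocks (ENSMUSG00000027398, chromosome 2, 129206490 to 129213059, minus strand), was close to the limit of detection, with 13, 13 and 7 reads at Pre, 10, 10 and 9 at WL1 and 9, 8 and 3 at WL2. At 0.602 ± 0.243, 0.503 ± 0.0420 and 0.373 ± 0.174 CPM (SD, n = 3) the phases overlapped. WL1 against Pre gave a log2 fold change of -0.25 with a 95% interval of -1.46 to 0.96 (edgeR adjusted p = 0.820). For WL2 against Pre it was -0.66 (95% interval -1.91 to 0.58, edgeR adjusted p = 0.485) and for WL2 against WL1 -0.42 (95% interval -1.67 to 0.84, edgeR adjusted p = 0.739). The lncRNA *Il1bos* overlaps *Il1b* on the opposite strand, with 17 reads in all libraries against 82 for *Il1b*. The strand setting of the counting is not given, so their reads may be mixed. The summed neutrophil markers, given above, were higher at Pre than in the later phases through 1 gene, *S100a8* (15.2 ± 3.19, 2.77 ± 0.730 and 0.893 ± 0.821 CPM, SD, n = 3). Of the 4 neutrophil markers tested, 1 had a higher value at WL1 and 3 at WL2 than at Pre. Their part in the level of *Il1b* was not tested.

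The ratio of *Il1rn* to *Il1b*, from FPKM, was 7.39, 14.2 and 25.6 at Pre, 41.0, 69.6 and 86.3 at WL1 and 49.3, 12.0 and 23.2 at WL2. The WL1 ratios lay above those of Pre without overlap, and WL2 replicate 1 lay within the WL1 range. Since *Il1b* rests on 3 to 13 reads per library, these ratios carry wide counting error.

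*Il18*, a member of the IL-1 family that is also matured by caspase-1 (ENSMUSG00000039217, chromosome 9, 50466127 to 50493140, plus strand), had 51, 63 and 107 reads at Pre, 61, 63 and 85 at WL1 and 74, 115 and 114 at WL2. WL1 replicate 3 and Pre replicate 3 (4.78 and 4.94 CPM) overlapped with WL2 replicate 1 (4.05), whereas the other WL2 libraries were at 6.51 and 6.60 CPM, above each other library. The means were 3.81 ± 1.01, 3.66 ± 0.990 and 5.72 ± 1.45 CPM (SD, n = 3). WL2 against WL1 gave a log2 fold change of 0.65 (95% interval 0.00058 to 1.29, edgeR adjusted p = 0.233). WL2 against Pre gave 0.58 (95% interval -0.06 to 1.23, edgeR adjusted p = 0.236) and WL1 against Pre -0.06 (95% interval -0.71 to 0.59, edgeR adjusted p = 0.921). *Bco2* and *Tex12* overlap *Il18* on the opposite strand with 162 and 3 reads in all, against 733 for *Il18*. WL2 replicates 2 and 3 also had the highest mesothelial marker sums (500 and 658 CPM), whereas WL1 replicate 3 had 114 CPM. The part of mesothelial cells in the level of *Il18* was not tested.

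*Il6* codes for a cytokine of inflammation and of contracting muscle (ENSMUSG00000025746, chromosome 5, 30218112 to 30224979, plus strand) and had 4, 10 and 4 reads at Pre, 8, 3 and 0 at WL1 and 9, 8 and 5 at WL2. The count of 0 in WL1 replicate 3 allows up to 3 reads, or 0.169 CPM, counting error alone considered. The intervals of the log2 fold changes ran from -2.78 to 1.30 for WL1 against Pre, from -1.57 to 2.27 for WL2 against Pre and from -0.92 to 3.10 for WL2 against WL1, so that even severalfold differences were not detectable at this depth. The edgeR adjusted p were 0.667, 0.830 and 0.551.

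*Il10*, the anti-inflammatory cytokine (ENSMUSG00000016529, chromosome 1, 130947582 to 130952711, plus strand), had 6, 24 and 6 reads at Pre, 8, 19 and 27 at WL1 and 6, 4 and 3 at WL2. Pre replicate 2, the library with the highest T and NK cell and B cell marker sums, was the highest at Pre with 1.32 CPM. It also had the highest macrophage marker sum at Pre (2782 CPM). At WL1 the order of the libraries was the same for *Il10* (0.434, 0.872 and 1.52 CPM) and for the macrophage sum (2803, 3323 and 5433 CPM). At Pre the order differed, with *Il10* at 0.354, 1.32 and 0.277 CPM and the sum at 1523, 2782 and 2395 CPM. It differed at WL2 too, with *Il10* at 0.329, 0.227 and 0.174 CPM and the sum at 3141, 1687 and 1866 CPM. Of the macrophage markers, 9 of 10 had lower values at WL2 than at WL1. The part of any of these cells in the level of *Il10* was not tested. The WL1 libraries (0.434 to 1.52 CPM) lay above those of WL2 (0.174 to 0.329 CPM) without overlap. This corresponds to a log2 fold change of WL2 against WL1 of -1.92 (SE 0.74, 95% interval -3.56 to -0.28) that did not pass (edgeR adjusted p = 0.166, DESeq2 adjusted p = 0.116). WL1 against Pre gave 0.53 (95% interval -0.96 to 2.02, edgeR adjusted p = 0.671) and WL2 against Pre -1.39 (95% interval -3.05 to 0.28, edgeR adjusted p = 0.272).

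*Nlrp3*, the inflammasome sensor (ENSMUSG00000032691, chromosome 11, 59432394 to 59457782, plus strand), had 18, 33 and 48 reads at Pre, 36, 30 and 47 at WL1 and 45, 27 and 31 at WL2. Its means of 1.70, 1.99 and 1.93 CPM (SD 0.586, 0.633 and 0.481, n = 3) overlapped in all 3 phases. WL1 against Pre gave a log2 fold change of 0.22 with a 95% interval of -0.61 to 1.04, WL2 against Pre 0.18 (-0.65 to 1.01) and WL2 against WL1 -0.04 (-0.86 to 0.78). The edgeR adjusted p were 0.762, 0.798 and 0.971.

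*Ptgs2* codes for cyclooxygenase-2, the inducible enzyme at the head of prostaglandin synthesis (ENSMUSG00000032487, chromosome 1, 149975782 to 149983978, plus strand). It had 3, 13 and 33 reads at Pre, 24, 2 and 6 at WL1 and 15, 25 and 23 at WL2, or 0.805 ± 0.677, 0.577 ± 0.640 and 1.19 ± 0.322 CPM (SD, n = 3). The libraries of Pre and WL1 varied widely, and those of WL2 less. Against Pre, the log2 fold changes were -0.52 at WL1 (95% interval -2.41 to 1.38) and 0.53 at WL2 (-1.29 to 2.36), and WL2 against WL1 gave 1.05 (-0.83 to 2.93). The edgeR adjusted p were 0.754, 0.719 and 0.537. The libraries of the 3 phases overlapped. The mesothelial marker sums were 37.3, 366 and 327 CPM at Pre, 219, 44.3 and 114 at WL1 and 233, 500 and 658 at WL2. The library with the lowest sum in each phase also had the least *Ptgs2*, while the full order matched only at WL1. The part of mesothelial cells in the level of *Ptgs2* was not tested.

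*Csf1*, the growth factor on which macrophages depend (ENSMUSG00000014599, chromosome 3, 107648364 to 107667785, minus strand), was measured with the most reads of the 10 genes, 1048 to 1830 per library. It stood at 61.8, 89.7 and 84.5 CPM at Pre, 95.1, 66.9 and 77.8 at WL1 and 72.4, 94.7 and 103 at WL2, and the phases overlapped. Between Pre and WL1 the log2 fold change was 0.02 with a 95% interval of -0.39 to 0.43 (edgeR adjusted p = 0.959). It was 0.19 between Pre and WL2 (-0.22 to 0.61, edgeR adjusted p = 0.541) and 0.17 between WL1 and WL2 (-0.24 to 0.58, edgeR adjusted p = 0.662). These are the narrowest intervals among the 10 genes.

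*Il15*, a cytokine that sustains NK and memory T cells (ENSMUSG00000031712, chromosome 8, 83058261 to 83129851, minus strand), had 8.79, 4.30 and 7.01 CPM at Pre, 7.71, 9.14 and 11.8 at WL1 and 7.23, 7.59 and 7.64 at WL2. Pre replicate 2 was the lowest of the 9 libraries. The WL1 libraries were narrowly above those of WL2 without overlap, at a log2 fold change of WL2 against WL1 of -0.35 (95% interval -0.91 to 0.21, edgeR adjusted p = 0.481). WL1 against Pre gave 0.51 (95% interval -0.05 to 1.07, edgeR adjusted p = 0.244) and WL2 against Pre 0.16 (95% interval -0.40 to 0.72, edgeR adjusted p = 0.727).

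Counted over the 10 genes, 1 passed the adjusted threshold upward between Pre and WL1, namely *Tnf*, where 2.6% of the 18510 genes tested passed upward and 7.29% in either direction. Between Pre and WL2, edgeR called 0 of the 10, where 10% of all genes passed. DESeq2 also called 0, with no adjusted p for *Il6*, against 2717 of all 18510 genes. The unadjusted p of edgeR was under 0.05 for 0 of the 10. Between WL1 and WL2, 1 of 10 passed downward, again *Tnf*, against 2.37% of all genes downward and 3.68% in either direction. An unadjusted p under 0.05 was found for 2, 0 and 4 of the 10 in the 3 comparisons, against 24.3%, 26% and 21.4% of all genes. In the contrast of WL1 with the mean of Pre and WL2, 1 passed upward against 2.81% of all genes upward and 4.58% in either direction. At 0 or 1 of 10, these counts are near the shares of all genes and are no result about the set. The comparisons share libraries, so the 2 calls of *Tnf* both rest on the WL1 libraries.

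Libraries did not overlap for 2 of the 10 genes between Pre and WL1 (*Tnf* and *Il1rn*, both higher) and for 0 between Pre and WL2. Between WL1 and WL2 they did not overlap for 3 (*Tnf*, *Il10* and *Il15*, all lower). The shares over all genes were 28.7%, 30.9% and 30.3%. The median log2 fold changes of the 10 genes were 0.12, 0.19 and -0.20 in the 3 comparisons, beside 0.02, 0.01 and -0.0014 over all genes tested. The members did not move as a block, with 6 higher and 4 lower in the first of these comparisons, 7 and 3 in the next and 4 and 6 in the last.

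**Figure D3:**
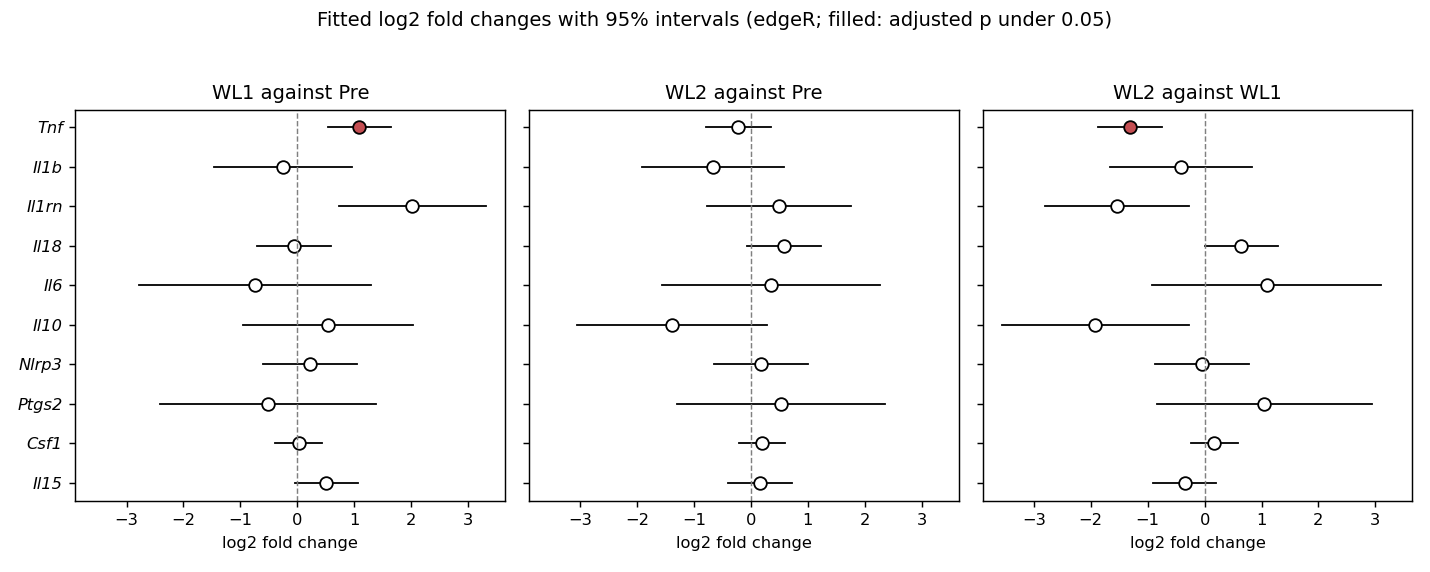
Fitted log2 fold changes of the 10 genes (horizontal axis, points) with 95% intervals (lines) in the 3 comparisons of phases, where filled points passed the adjusted threshold of edgeR. Tnf is filled for WL1 against Pre (1.09) and WL2 against WL1 (-1.31), and the intervals of Il6, Ptgs2 and Il10 are the widest.

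The genes whose log2 CPM followed that of *Tnf* most closely over the 9 libraries were *Ppp1r12c* (Pearson r = 0.978), *Myo9b* (0.970) and *Igsf9* (0.964), out of 13055 protein-coding genes with a mean of at least 1 CPM. These values are a description over libraries that share their phases, and the 3 genes were picked for their likeness.

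The other genes of the pathways were read from 8 lists with 108 genes, of which 104 were tested and *Il11*, *Ptgdr*, *Csf2* and *Csf3* did not reach the filter. Between Pre and WL1, 11 of the 104 passed (10.6%, against 7.29% of all genes), 7 higher and 4 lower. Between Pre and WL2, 10 passed (9.62%, against 10%), 3 higher and 7 lower. Between WL1 and WL2, 4 passed (3.85%, against 3.68%), 2 in each direction. In the contrast of WL1 with the mean of Pre and WL2, 10 passed (9.62%, against 4.58%), 9 of them higher at WL1. The split depended on the scaling. Library totals in place of TMM moved the median of all genes by 0.098 at WL1 and by 0.15 at WL2, both against Pre. The split of the list genes then became 13 higher and 4 lower at WL1 and 11 higher and 6 lower at WL2. The share of higher among all calls moved from 35.7% to 61% and from 33.5% to 64.2%.

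**Figure D4:**
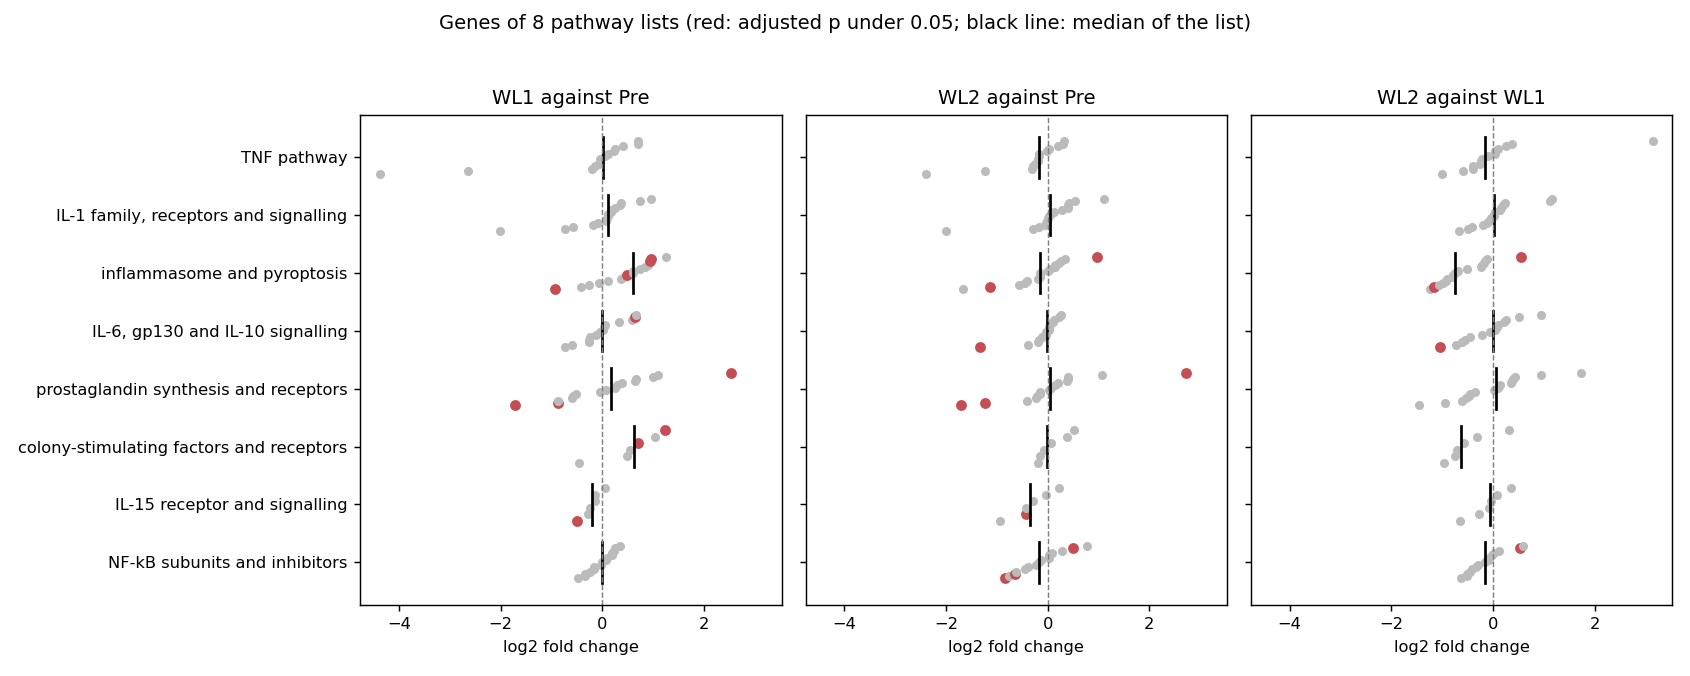
Log2 fold changes (horizontal axis) of the genes of 8 pathway lists (rows) in the 3 comparisons of phases, where each point is a gene, red points passed the adjusted threshold of edgeR and black lines are list medians. The inflammasome list lies mostly to the right at WL1 against Pre (13 of 17 higher) and to the left at WL2 against WL1 (16 of 17 lower).

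The TNF pathway list (14 tested) held receptors, signalling proteins, processing enzymes and further ligands of the TNF family. The IL-1 family list (16 tested) held receptors, signalling proteins, further cytokines of the family and a binding protein. Neither list had a gene past the edgeR threshold at WL1 against Pre, WL2 against Pre or WL2 against WL1. Of all genes, 7.29%, 10% and 3.68% passed in these comparisons. With an unadjusted p under 0.05, edgeR gave 5, 3 and 5 TNF pathway genes and 2, 2 and 3 IL-1 family genes (WL1 or WL2 against Pre, and WL2 against WL1). The shares over all genes tested were 24.3%, 26% and 21.4%. DESeq2 called 0, 1 and 3 of the TNF pathway list and 1 of the IL-1 family list in each. Of all 18510 genes, DESeq2 called 2344, 2717 and 1935. The list medians between Pre and WL1 were 0.01 and 0.12, beside 0.02 for all genes.

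The genes of inflammasomes and of pyroptosis, the lytic cell death that follows caspase-1 activation, were mostly higher at WL1. Of 17 tested, 13 were higher at WL1 than at Pre (list median 0.60 on the log2 scale, beside 0.02 for all genes). From WL1 to WL2, 16 were lower (list median -0.75, beside -0.0014). The direction of these medians was the same with RLE factors and with library totals as the scaling. At WL1, 3 rose and 1 fell past the threshold against Pre, and 11 had an unadjusted p under 0.05. Of all genes tested, 7.29% passed, 2.6% upward, and 24.3% had an unadjusted p under 0.05. *Gsdmd*, whose product forms the pore of pyroptosis, rose from 32.7 ± 2.24 to 45.9 ± 3.59 CPM (SD, n = 3, log2 fold change 0.49, edgeR adjusted p = 0.0334). *P2rx7*, the ATP-gated channel that triggers NLRP3, rose from 27.1 ± 6.27 to 51.9 ± 9.71 CPM (SD, n = 3, log2 fold change 0.94, edgeR adjusted p = 0.0399). *Naip5*, a sensor of bacterial flagellin, rose from 8.95 ± 2.21 to 17.4 ± 2.72 CPM (SD, n = 3, log2 fold change 0.95, edgeR adjusted p = 0.0292). Its close copy *Naip2* fell from 21.0 ± 4.36 at WL1 to 9.36 ± 2.68 CPM at WL2 (SD, n = 3, log2 fold change -1.17, edgeR adjusted p = 0.0364). Reads may be split between these paralogs. The macrophage markers moved in the same directions, and their part in these differences was not tested.

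A further pair of inflammasome genes left the course of most of the list, *Gsdme* at WL1 against Pre and *Txnip* from WL1 to WL2. At WL1 against Pre, *Txnip* was higher without passing (log2 fold change 0.42, edgeR adjusted p = 0.0631). *Gsdme*, a gasdermin cleaved by caspase-3, was lower in both phases of weight loss, at 21.2 ± 2.08, 11.1 ± 1.34 and 9.64 ± 0.421 CPM (SD, n = 3), with log2 fold changes against Pre of -0.93 and -1.14 (edgeR adjusted p = 0.00429 and 0.000793). *Txnip*, a thioredoxin-binding protein that has been linked to NLRP3 and responds to glucose, stood at 1285 ± 91.6, 1721 ± 215 and 2528 ± 52.2 CPM (SD, n = 3) and rose at WL2 against Pre by 0.98 and against WL1 by 0.55 (edgeR adjusted p = 0.000842 and 0.0364). The calls of *Gsdme* and of *Txnip* against Pre held in all 9 fits that each left out 1 library. The other calls of this list did not. *P2rx7* was called in only 2 of these fits, those without WL2 replicate 1 or 2 (0.76 to 1.05 over the 9 fits), and *Gsdmd* in 3, those without Pre replicate 2 or WL2 replicate 1 or 3 (0.41 to 0.53). *Naip5* was lost when Pre replicate 1 or 2 or any WL1 library was left out (0.81 to 1.18). *Naip2* (-1.42 to -0.97) and *Txnip* between WL1 and WL2 (0.48 to 0.64) were called only without Pre replicate 1 or 2 or WL2 replicate 1. The calls of *P2rx7*, of *Naip2* and of *Txnip* between WL1 and WL2 were also lost in limma with either pseudocount, and that of *Gsdmd* with Pre and WL1 fitted alone.

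Among the prostaglandin genes (16 tested), 3 passed at WL1 and 3 at WL2, each against Pre, where 7.29% and 10% of all genes passed. *Ptges*, the inducible synthase of prostaglandin E2 that acts after cyclooxygenase-2, fell from 60.1 ± 9.35 CPM at Pre to 32.7 ± 2.05 at WL1 and 25.6 ± 4.29 at WL2 (SD, n = 3, log2 fold changes -0.88 and -1.23, edgeR adjusted p = 0.00970 and 0.000877). *Ptger3*, a prostaglandin E2 receptor that lowers cAMP and is high in adipocytes, fell from 87.8 ± 10.7 to 26.6 ± 3.37 and 27.0 ± 8.24 CPM (SD, n = 3, log2 fold changes -1.72 and -1.70, edgeR adjusted p = 0.00159 and 0.000877). These 4 calls held in all 9 fits that each left out 1 library. The adipocyte markers, given above, also had lower values at WL1 in 8 of 8 genes and at WL2 in 5 of 8, and their part in the fall of *Ptger3* was not tested. *Hpgds*, the prostaglandin D2 synthase of haematopoietic cells, rose from 11.7 ± 5.82 CPM at Pre to 67.9 ± 25.4 at WL1 (SD, n = 3, log2 fold change 2.53, edgeR adjusted p = 0.0131), a call lost without Pre replicate 1 (2.17 to 3.02 over the fits). Of the 10 macrophage markers, 9 had higher values at WL1 too, and their part was not tested. *Ptgds*, the other prostaglandin D2 synthase, rose at WL2 against Pre from 0.121 ± 0.0553 to 0.849 ± 0.171 CPM (SD, n = 3, log2 fold change 2.73, edgeR adjusted p = 0.0431), a low level at which the call was lost without any Pre or WL2 library or WL1 replicate 1 (2.44 to 2.97).

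In the list of IL-6, gp130 and IL-10 signalling (14 tested), *Il6ra*, the ligand-binding chain of the IL-6 receptor, rose from 62.4 ± 6.55 to 97.0 ± 7.82 CPM at WL1 (SD, n = 3, log2 fold change 0.64, edgeR adjusted p = 0.0338). *Lif*, a cytokine of the IL-6 family, fell from 4.96 ± 0.346 CPM at Pre to 1.98 ± 0.392 at WL2 (SD, n = 3, log2 fold change -1.32, edgeR adjusted p = 0.00692). *Il10ra*, the ligand-binding chain of the IL-10 receptor, fell from 53.2 ± 13.3 CPM at WL1 to 25.8 ± 5.10 at WL2 (SD, n = 3, log2 fold change -1.05, edgeR adjusted p = 0.0457). The *Lif* call held in all 9 fits. *Il6ra* was lost when Pre replicate 1 or 2 or any WL1 library was left out (0.58 to 0.73), and *Il10ra* was called only without Pre replicate 1 or 2 or WL2 replicate 1 (-1.22 to -0.80). Both were lost in limma with either pseudocount. The macrophage markers had higher values at WL1 than at Pre in 9 of 10 genes and lower values at WL2 than at WL1 in 9 of 10, and their part in *Il6ra* and *Il10ra* was not tested.

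Among the colony-stimulating factors and receptors (6 tested), 5 were higher at WL1 than at Pre and 5 lower at WL2 than at WL1. The list medians were 0.63 and -0.63, beside 0.02 and -0.0014 for all genes. At WL1 against Pre, 2 passed, both higher, where 7.29% of all genes passed, 2.6% upward. At WL2 against WL1, 0 passed, against 3.68% of all genes. An unadjusted p under 0.05 was found for 4 and 5 of the 6, against 24.3% and 21.4%. The near-identical signalling chains of the receptors for GM-CSF and IL-3, *Csf2rb* and *Csf2rb2*, rose at WL1 from 94.6 ± 14.4 to 153 ± 3.72 and from 35.7 ± 11.4 to 83.7 ± 18.0 CPM (SD, n = 3, log2 fold changes 0.70 and 1.23, edgeR adjusted p = 0.0171 and 0.0237). Reads may be split between them. The call of *Csf2rb* was lost without Pre replicate 1 or WL1 replicate 1 or 2 (0.62 to 0.83), and that of *Csf2rb2* without Pre replicate 1 or 2 or WL1 replicate 3 (1.03 to 1.51). The macrophage markers moved in the same directions here too, and their part was not tested.

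Of the IL-15 receptor and signalling list (6 tested), *Stat5a*, a transcription factor downstream of IL-15 and other cytokines, fell from 60.9 ± 4.96 CPM at Pre to 43.0 ± 1.99 at WL1 and 45.2 ± 1.90 at WL2 (SD, n = 3, log2 fold changes -0.50 and -0.43, edgeR adjusted p = 0.0174 and 0.0243). It was lost without Pre replicate 1 or any library of the compared phase (-0.57 to -0.45 and -0.49 to -0.38), and at WL2 also with library totals as the scaling and with Pre and WL2 fitted alone.

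The NF-kB subunits and inhibitors (15 tested) had 0 genes past the edgeR threshold between Pre and WL1, where 2 had an unadjusted p under 0.05 and DESeq2 called 0. Of all genes tested, 7.29% passed in this comparison and 24.3% had an unadjusted p under 0.05, and DESeq2 called 2344 of the 18510. Between Pre and WL2, 3 passed, against 10% of all genes. *Nfkb2*, the precursor of a subunit of the non-canonical pathway, fell from 73.3 ± 16.7 CPM at Pre to 41.0 ± 1.62 at WL2 (SD, n = 3, log2 fold change -0.84, edgeR adjusted p = 0.00703). *Nfkbia*, which codes for the inhibitor IκBα, rose from 81.7 ± 7.29 at Pre and 80.02 ± 0.874 at WL1 to 115 ± 11.4 CPM at WL2 (SD, n = 3, log2 fold changes 0.50 and 0.53, edgeR adjusted p = 0.0169 and 0.0306). *Nfkbib*, which codes for IκBβ, fell from 33.0 ± 0.925 to 21.3 ± 2.45 CPM at WL2 against Pre (SD, n = 3, log2 fold change -0.64, edgeR adjusted p = 0.00883). The *Nfkb2* call held in all 9 fits. *Nfkbia* against Pre was lost without Pre replicate 1 or WL2 replicate 3 (0.41 to 0.57). Against WL1 it was lost without any WL1 library or WL2 replicate 2 or 3 (0.44 to 0.57). *Nfkbib* was lost without WL2 replicate 2 (-0.73 to -0.57).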

How the data were processed

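RNA of epididymal adipose tissue was sequenced by Novogene in 9 libraries, 3 per phase (Pre, WL1 and WL2), with phases and replicate numbers taken from the labels. The authors deposited counts per gene, as whole numbers without normalization, and FPKM per gene for the same libraries. Relative to the summed counts, the library total implied by the deposited FPKM was 0.995 to 1.01 in Pre, 1.07 to 1.11 in WL1 and 1.11 to 1.12 in WL2 libraries, a slightly different scale in each phase. The submitters' processing notes name CASAVA, HISAT, HISAT2 and TopHat2 and the builds GRCm38 and mm10, without versions. The counting program, its strand setting and the annotation were not given in the sources used here. In the table, 0 of the 10 members overlapped their RefSeq gene on GRCm38.p6, so coordinates of genes are printed as the table gives them, without a build, and only the promoter windows, taken from RefSeq, carry GRCm38.p6.

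The members, the lists and the tests were chosen with earlier results of these data known. The paper filtered genes below 0.5 CPM, which was read here as at least 0.5 CPM in at least 1 library (18510 of 56748 genes). Counts were scaled by TMM (factors 0.933 to 1.07) and tested by the quasi-likelihood F test of edgeR 4.0.16 under R 4.3.3 (1 model over the 9 libraries, common dispersion 0.0478), adjusted by Benjamini-Hochberg over all genes tested, with a threshold of 0.05. Standard errors were taken from the fold change and F statistic and 95% intervals from the t distribution with the degrees of freedom of the test. With 3 against 3 libraries an exact permutation test of 1 value cannot go below p = 0.1 and was not run. CPM in the text are TMM-scaled. Between genes, levels were compared in FPKM only.

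The text names all members, from each pathway list the genes past the threshold in a comparison of phases (at most 4 per list and comparison, by size), the 3 genes most like a called member, and markers at 0. Lists of 8 pathways and of markers of 9 cell types or tissues were described by counts and medians without a set test. No pairing by replicate number was seen. Deviations of same-numbered libraries from their phase means correlated between -0.277 and 0.107 in 9 pairs, and those of differently numbered ones between -0.197 and 0.239. These values cannot exclude that same-numbered libraries were handled together. No libraries of a phase were identical, and chi-square values of their counts were 9.13 to 48.9 per degree of freedom, above sampling noise. The alternatives were DESeq2 1.42.0, limma 3.58.1 on the log2 of FPKM with a pseudocount of 1 or 0.1, RLE factors, library totals alone, a filter on 3 libraries or none, the replicate number as a block, fits without the third phase, and leaving out each library in turn. The tests were tried on simulated counts first. At 16434450 to 22729072 counts per library, 1 CPM is about 16.4 to 22.7 reads, so genes under 1 CPM carry wide counting error, which is what the upper limit for a count of 0 (3 reads) covers.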

Additional observations from a re-analysis of the deposited data

How the results depend on the processing

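The call of *Tnf* lies close to the threshold, and single libraries decide most counts below. Counts of at most 33 reads per library limit *Il1b*, *Il6*, *Ptgs2* and *Il10*, for which no setting gave a call. The replicate number was also fitted as a block, though the labels name no pairing of the libraries. This block left *Tnf* at 1.09 for WL1 against Pre (edgeR adjusted p = 0.0592) and at -1.31 for WL2 against WL1 (edgeR adjusted p = 0.0561). Thus 0 members were called in each. With this block the calls of *Gsdmd* and *P2rx7* at WL1 against Pre, *Ptgds* and *Stat5a* at WL2 against Pre, and *Naip2*, *Txnip*, *Il10ra* and *Nfkbia* at WL2 against WL1 were not made. *Il6* had no value with the filter on 3 libraries. Fits of the compared phases alone were not made for the contrast of WL1 with the mean of Pre and WL2.

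The members called at WL1 against Pre numbered 2 with library totals alone and 2 in DESeq2, at WL2 against WL1 2 without a filter, and in the contrast of WL1 with the mean of Pre and WL2 2 with library totals, 2 without a filter and 2 in DESeq2. With each library left out they ranged from 0 to 2 in these 3 comparisons and stayed at 0 at WL2 against Pre.

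The pathway genes called at WL1 against Pre numbered 17 with library totals, 21 without a filter and 21 in DESeq2 (3 to 17 with each library left out), at WL2 against Pre 17 with library totals and 17 in DESeq2 (7 to 11), at WL2 against WL1 21 without a filter, 21 in DESeq2, 2 and 1 in limma with a pseudocount of 1 and 0.1, 11 with the compared phases alone and 1 with the block (0 to 16), and in the contrast of WL1 with the mean of Pre and WL2 22 without a filter, 27 in DESeq2, 2 and 1 in limma and 3 with the block (0 to 20).

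Of all genes, WL1 against Pre gave 2344 in DESeq2 and 844 with the block (512 to 1500 with each library left out), WL2 against Pre 743 to 1688 with each library left out, WL2 against WL1 1668 without a filter, 1935 in DESeq2, 1053 with the compared phases alone and 330 with the block (37 to 1351), and the contrast of WL1 with the mean of Pre and WL2 1496 without a filter, 1949 in DESeq2, 521 and 445 in limma and 272 with the block (11 to 1335).

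Changes of sign were seen only in differences that were not called. *Il18* at WL1 against Pre was 0.030 with library totals and -0.31 to 0.17 with each library left out. *Csf1* at WL1 against Pre was -0.0087 with the filter on 3 libraries and -0.12 to 0.14 with each library left out, and -0.22 to 0.039 in the contrast of WL1 with the mean of Pre and WL2. *Nlrp3* at WL2 against WL1 was 0.0090 with library totals, and with each library left out ranged from -0.25 to 0.23, from -0.045 to 0.46 at WL1 against Pre, from -0.065 to 0.42 at WL2 against Pre and from -0.14 to 0.34 in that contrast. *Ptgs2* at WL1 against Pre ranged from -1.94 to 0.34, *Il1rn* at WL2 against Pre from -0.76 to 0.89, *Il15* at WL2 against Pre from -0.075 to 0.40 and *Il1b* in that contrast from -0.082 to 0.21. The cause of these changes was not tested.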
